A study of Mus musculus with 2 samples.

Results

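Transcripts of 10 BCL2 family genes were measured in nuclear RNA of macrophages, out of 55536 annotated genes, of which 22028 are protein-coding. The genes were taken by symbol and not by a rule on their measured values. Earlier results of these data were known when the genes were chosen. They are the 6 survival genes Mcl1, Bcl2l1, Bcl2, Bcl2a1a, Bcl2a1b and Bcl2a1d, the 2 effector genes Bax and Bak1, and the 2 BH3-only genes Bcl2l11 and Pmaip1. The cells were macrophages grown from C57BL/6J bone marrow. They had received 100 ng/ml Lipid A, the ligand of TLR4, for 12 hours, were left without it for 12 hours after a wash, and were given the same concentration again for 20 minutes before the nuclear fraction was isolated. Ribosomal RNA was depleted before sequencing. The single group held 2 libraries, labelled biological replicates 1 and 2, made from 1 µg and 500 ng of RNA. RNA input and replicate therefore cannot be told apart. Both libraries carry the same donor label, and the sources used here do not say whether separate animals were used, so the SDs measure only the spread between these libraries. The labels call the fraction nucleoplasmic in one field and nuclear in another. No unstimulated library was analysed here, and the response to Lipid A was not measured.

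BCL2 family proteins decide at the mitochondrial outer membrane whether a cell starts apoptosis. The guardians BCL2, BCL-XL (from Bcl2l1), MCL1 and A1 (from the Bcl2a1 genes) bind and restrain the pore-forming effectors BAX and BAK. BH3-only proteins such as BIM (from Bcl2l11) and NOXA (from Pmaip1) occupy the guardians and free or activate the effectors. In myeloid cells MCL1 is a short-lived survival factor, and A1 is known as an NF-kB target that inflammatory signals induce. Mice carry several near-identical A1 genes, clustered on chromosome 9.

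The A1 genes are shown first, because their likeness bears on every value given for them. Each has 1 annotated transcript with 519 coding bases, or 172 codons before the stop. The first 90 coding bases, from the GENCODE M21 transcripts on mm10, hold 6 of the 12 coding positions at which the 3 genes differ, and these 6 are in capitals. The stretches lie in coding exons at chr9:88957051-88957140 (plus strand) for Bcl2a1a, chr9:89199360-89199449 (plus strand) for Bcl2a1b and chr9:88731630-88731719 (minus strand) for Bcl2a1d, each printed 5′ to 3′ along its gene.
Bcl2a1a: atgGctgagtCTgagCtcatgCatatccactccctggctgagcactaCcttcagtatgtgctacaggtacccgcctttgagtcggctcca
Bcl2a1b: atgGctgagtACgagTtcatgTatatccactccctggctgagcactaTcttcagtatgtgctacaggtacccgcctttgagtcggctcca
Bcl2a1d: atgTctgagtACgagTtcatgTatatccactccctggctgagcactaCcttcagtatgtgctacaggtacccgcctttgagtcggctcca

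Over the whole coding sequence Bcl2a1a and Bcl2a1b differed at 11 bases (97.9% identical), Bcl2a1a and Bcl2a1d at 7 (98.7%) and Bcl2a1b and Bcl2a1d at 6 (98.8%). Bcl2a1a had a base of its own at 6 positions, Bcl2a1b at 5 and Bcl2a1d at 1, and the longest stretch common to all 3 was 217 bases. A read from that stretch carries nothing that tells the 3 genes apart.

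The promoters were as alike. RefSeq windows of 250 bases before to 50 bases after the start site (GRCm38.p6) were found for 9 of the 10 genes and not for Pmaip1. The Bcl2a1a and Bcl2a1b windows were 99.2% identical over 256 aligned bases, and Bcl2a1d was 96.0% identical to Bcl2a1a and 96.5% to Bcl2a1b, with 6 gap positions in each. The 90 bases below lie before both the RefSeq start and the GENCODE start, which is 20, 64 and 64 bases further upstream in Bcl2a1a, Bcl2a1b and Bcl2a1d. They are shown because the 3 genes differed between the libraries in the same direction, as given below. The 3 genes share much of their transcript sequence, so their directions are not independent. Any part of the promoters in that difference was not tested. The windows were searched on both strands for TGANTCA, the AP-1 type site, GAGGAAGT, an ETS type site as bound by PU.1, TATAAA and the kappaB motif. Capitals mark all matches, which do not overlap each other. The stretches are chr9:88956760-88956849 (plus strand), chr9:89199069-89199158 (plus strand) and chr9:88731915-88732004 (minus strand).
Bcl2a1a: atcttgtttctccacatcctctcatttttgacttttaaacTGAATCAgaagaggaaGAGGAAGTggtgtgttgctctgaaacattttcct
Bcl2a1b: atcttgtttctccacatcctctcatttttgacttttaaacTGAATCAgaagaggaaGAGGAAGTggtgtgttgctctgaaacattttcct
Bcl2a1d: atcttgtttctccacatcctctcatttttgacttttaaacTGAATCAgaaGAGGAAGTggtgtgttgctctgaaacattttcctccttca

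Each A1 window held 1 match to TGANTCA and 1 to GAGGAAGT, and no TATAAA and no kappaB motif. Among all 32851 windows of this length, 7.81% held TGANTCA, 3.20% GAGGAAGT, 13.6% TATAAA and 4.51% the kappaB motif. Of the 12 windows of the 9 genes, 3 held TGANTCA, all of A1 genes, and 4 held GAGGAAGT, those of the A1 genes and of Bak1. The single kappaB match was in a Bcl2l1 window, and none held TATAAA. The windows of the A1 genes are near-identical, so their matches are not separate observations beside these shares. These are matches of letters only.

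Depth in genes was 21954179 (replicate 1) and 17739520 (replicate 2) expected counts, which are estimates of read number and can be fractional. Levels are in TPM, in which counts are divided by transcript length and scaled to a common total in each library. All 8 macrophage markers reached 1 TPM in both libraries, with a median of 206 TPM, and the nuclear RNA Malat1 had 22212 ± 8315 TPM (SD, n = 2). None of 10 neutrophil, 8 lymphoid, 6 dendritic and 6 erythroid or mast cell markers did. The summed neutrophil markers had 1.11 and 2.27 TPM and the dendritic markers 2.34 and 2.89 TPM in replicates 1 and 2, and 4 lymphoid and 4 erythroid or mast cell markers were at 0 in both. Among 6 stromal and endothelial markers 2 reached 1 TPM and 2 were at 0, with a sum of 16.5 and 8.24 TPM, mostly from Kdr with 14.9 and 6.44 TPM.

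All 10 genes were at 1 TPM or more in both libraries, against 43.7% of protein-coding genes, and 8 of 10 were at 10 TPM or more in both, against 18.6%, though 5 of 10 were in the other transcript table, whose TPM scale differs. The members' median was 35.6 TPM and that of all protein-coding genes 0.430 TPM. The levels spanned from Bcl2 at 3.37 ± 0.304 TPM to Mcl1 at 262 ± 33.7 TPM (SD, n = 2). In a bulk nuclear fraction, fewer cells with a transcript and less of it per cell cannot be told apart.

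**Figure D1:**
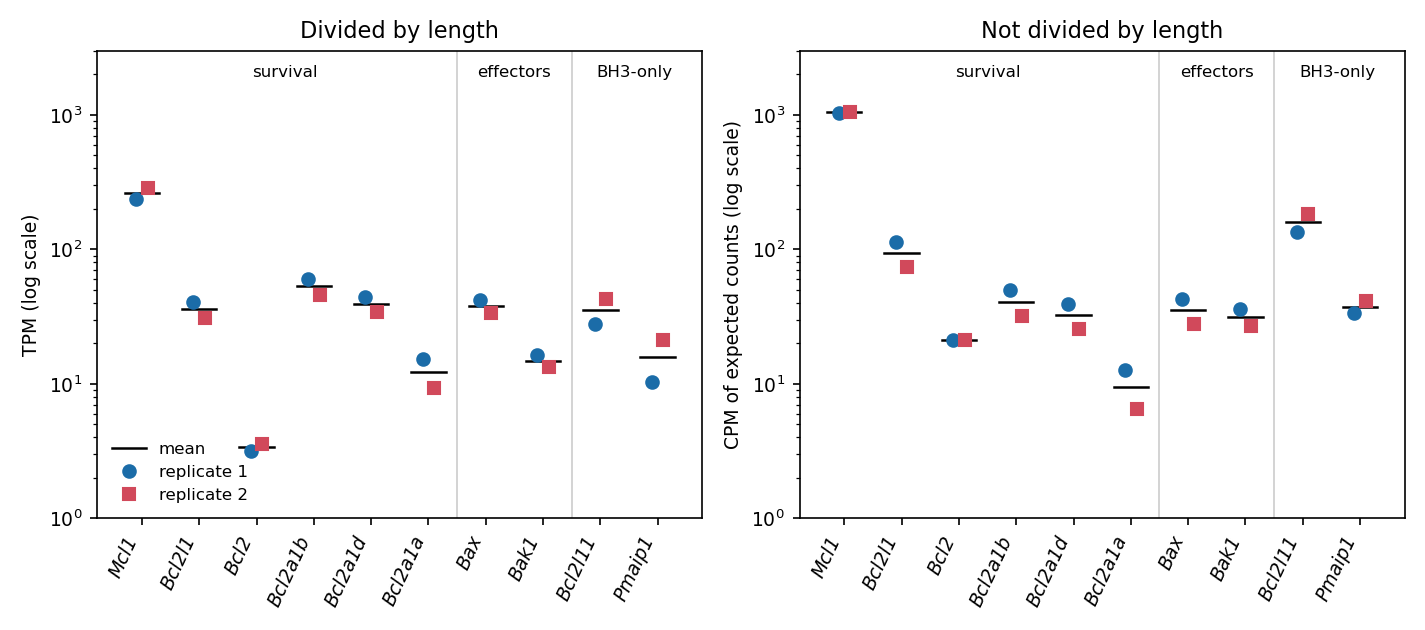
Level of each gene in each library, as TPM (left) and as CPM, counts scaled to a common total but not divided by length (right), both on log axes, with circles for replicate 1, squares for replicate 2 and a bar at the mean. Mcl1 stood highest in both panels, and Bcl2 was lowest in TPM while Bcl2a1a was lowest in CPM.

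Among the guardians, Mcl1 (ENSMUSG00000038612.16, chr3:95658788-95663176) was far above the rest. It had 238 and 286 TPM on 22846 and 18725 counts in replicates 1 and 2, and only 93 of the protein-coding genes (0.422%) had a higher mean. It took 0.104% of all gene counts in replicate 1, with a 95% Wilson interval of 0.103 to 0.105, and 0.106% in replicate 2, with 0.104 to 0.107. The intervals overlapped, and like the others given here they cover counting error only. Mcl1 carried 59.3% and 69.7% of the summed TPM of the 6 guardians.

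Bcl2l1 (ENSMUSG00000007659.18, chr2:152780668-152831728), the BCL-XL gene, had 40.72 and 31.01 TPM on 2509 and 1309 counts in replicates 1 and 2. Bcl2 itself (ENSMUSG00000057329.7, chr1:106538178-106714274), the founding guardian, had 3.15 and 3.58 TPM on 466 and 374 counts. It was the lowest of the 10 genes in both libraries, at percentile 64.1 of protein-coding genes by mean TPM. The TPM ratio of Mcl1 to Bcl2 was 75.6 in replicate 1 and 79.8 in replicate 2, and that of Bcl2l1 to Bcl2 was 12.9 and 8.66. These sizes varied with the quantification. In TPM of the other table, a transcript table made from the reads directly, Mcl1 to Bcl2 was 55.4 and 27.9 and Bcl2l1 to Bcl2 was 7.73 and 2.99, and in CPM they were 49.0 and 50.1 and 5.38 and 3.50.

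In TPM the A1 genes lay between Mcl1 and Bcl2. Bcl2a1b (ENSMUSG00000089929.1, chr9:89199209-89207827) had 60.3 and 45.9 TPM on 1090 and 563 counts in replicates 1 and 2. Bcl2a1d (ENSMUSG00000099974.1, chr9:88723285-88731914) had 43.9 and 34.3 TPM on 855 and 453 counts, and Bcl2a1a (ENSMUSG00000102037.1, chr9:88956900-88962419) had 15.3 and 9.32 TPM on 277 and 115 counts. Replicate 1 was the higher library for each of them in TPM of the gene tables, where the ranges of the 3 genes did not overlap. The ranges of Bcl2a1b and Bcl2a1d did overlap in CPM, at 31.7 to 49.7 and 25.5 to 39.0. They also overlapped in the other table, at 14.8 to 25.3 and 12.2 to 24.3 TPM. The 3 A1 genes summed to 119 TPM in replicate 1 and 89.5 TPM in replicate 2, above Bcl2l1 and Bcl2 in both libraries. On counts not divided by length their sum was 101 and 63.7 CPM, below Bcl2l1 at 114 and 73.8 CPM. The order of the A1 sum and Bcl2l1 thus turned with the scale. The fourth mouse copy, Bcl2a1c, had 2 and 1 counts.

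The division of A1 reads among the 3 genes is an estimate. Of all 31-base stretches of their transcripts, 79.6% of Bcl2a1a, 88.8% of Bcl2a1b and 89.1% of Bcl2a1d also occur in a transcript of another gene, and for 100-base stretches the shares were 43.5%, 56.8% and 54.7%. The partners were the other A1 genes and, most of all for Bcl2a1b, Gm29094, a protein-coding model on the same strand that overlaps it and holds 42.2% of its 100-base stretches. Gm29094 had 108 and 62.2 counts in the gene tables but 315 and 486 in the other transcript table, so the higher library also differed between them. The authors' deposited posterior SD, which states how uncertain the assignment of reads was, came to 3.04% and 4.84% of the count for Bcl2a1a, 1.38% and 1.84% for Bcl2a1b and 1.15% and 1.60% for Bcl2a1d. An SD of 1% or more was given to 7.18% and 7.39% of the 9234 genes with at least 100 counts in both libraries. The other transcript table, which was made from the reads directly, divided the sum in the same order. It gave Bcl2a1b 46.5% and 44.0% of the summed TPM, Bcl2a1d 38.5% and 42.1% and Bcl2a1a 15.0% and 13.9%, where the gene tables gave 50.4% and 51.3%, 36.8% and 38.3%, and 12.8% and 10.4%.

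**Figure D2:**
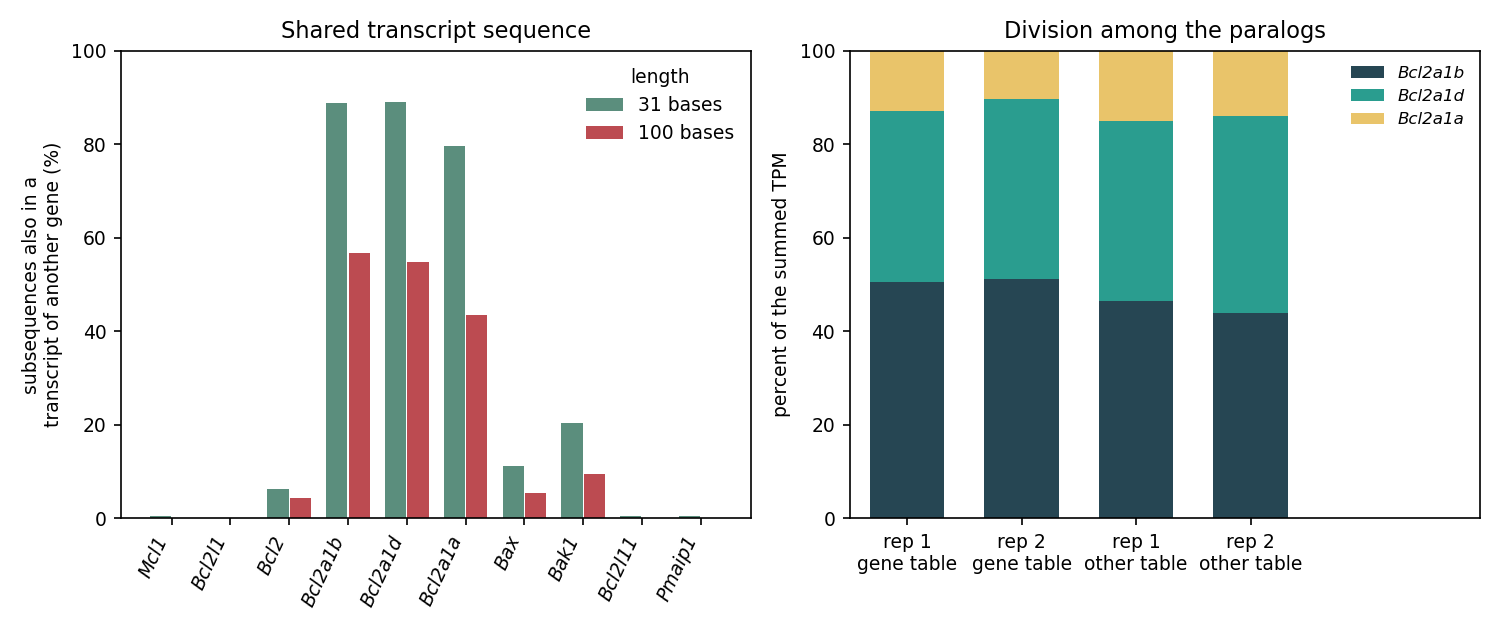
Left, percent of 31-base and 100-base stretches of each gene's transcripts that also occur, on either strand, in a transcript of another gene. Right, percent of the summed TPM of the A1 genes given to each, by library and table. The A1 genes stood apart with 43.5% or more shared at both lengths, and Bcl2a1b held the largest part of the sum in all 4 bars.

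Of the effectors, Bax (ENSMUSG00000003873.11, chr7:45461697-45466898) had 42.3 and 33.6 TPM on 942 and 495 counts in replicates 1 and 2. Bak1 (ENSMUSG00000057789.14, chr17:27019810-27029009) had 16.3 and 13.4 TPM on 796 and 478 counts. Replicate 1 was the higher library for both genes. Bax stood above Bak1 per length by 2.59 and 2.51 times, while without division by length the ratio was 1.18 and 1.04. Both genes overlap others: Bak1 lies opposite Ggnbp1, with which 9.44% of its 100-base stretches are shared, and Bax overlaps Gm45808 on its own strand (5.33%). With strand use not given in the sources used here, reads of Bak1 and Ggnbp1 may not be separated. In the gene tables the main Ggnbp1 entry had 125 and 52.1 counts, but 775 and 1313 in the other table.

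The BH3-only genes stood higher in replicate 2, unlike the effectors. Bcl2l11 (ENSMUSG00000027381.16, chr2:128126038-128162547), the BIM gene, had 27.7 and 42.9 TPM on 2958 and 3244 counts in replicates 1 and 2. Pmaip1 (ENSMUSG00000024521.8, chr18:66458533-66465565), the NOXA gene, had 10.4 and 21.2 TPM on 734 and 730 counts. The CPM of Bcl2l11, 135 and 183, had the same order. For Pmaip1 the TPM differed 2.05-fold while its CPM values, which are not divided by length, were 33.4 and 41.2. The effective length in the authors' tables was 2367 bases in replicate 1 and 1679 bases in replicate 2, a 1.41-fold difference.

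In order of mean TPM the genes ran Mcl1, Bcl2a1b, Bcl2a1d, Bax, Bcl2l1, Bcl2l11, Pmaip1, Bak1, Bcl2a1a and Bcl2. For 5 of the 9 neighbouring pairs the ranges of the libraries overlapped. By these ranges Bcl2a1d, Bax, Bcl2l1 and Bcl2l11 formed a run of overlapping neighbours, and so did Pmaip1, Bak1 and Bcl2a1a. Within each library, however, Bcl2a1d stood above Bax, Bax above Bcl2l1, and Bak1 above Bcl2a1a. The places of Bcl2l11 and Pmaip1 in their runs changed between the libraries. In CPM, Bcl2l11 (135 and 183), Bcl2l1 (114 and 73.8) and Bax (42.9 and 27.9) did not overlap.

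The summed guardians had 402 and 410 TPM in replicates 1 and 2, the effectors 58.6 and 47.0 TPM, and the BH3-only genes 38.1 and 64.1 TPM. The guardian sum was 4.15 times that of effectors and BH3-only genes together in replicate 1 and 3.69 times in replicate 2. Without Mcl1 the ratio was 1.69 and 1.12. On counts not divided by length it was 5.16 and 4.35 with Mcl1 but 0.957 and 0.569 without it, so whether the other guardians exceeded the death genes changed with the scale. The BH3-only sum was below the effector sum in replicate 1 (0.650 times) and above it in replicate 2 (1.37 times). On counts not divided by length it was above in both, by 2.12 and 4.08 times, so the order in replicate 1 turned with the scale. These are ratios of nuclear transcript levels of different genes, and protein was not measured.

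The libraries were compared by the log2 ratio of replicate 2 to replicate 1, with 1 TPM added to each, minus the median of 12952 genes with a mean of 1 TPM or more. That median was 0.29, and the differences below are relative to it. With 1 library on each side there is no test. No member passed 2-fold, against 4.51% of those genes lower and 2.78% higher in replicate 2. The members' median was -0.59, where the median of all these genes is 0 by construction and that of the protein-coding ones was -0.04. At 0.5 or more, a limit chosen after the values were seen, 6 of 10 members were lower in replicate 2, against 16.6% of genes, and 1 was higher, against 14.3%. The count of 6 was 1 without centring and 1 in the other transcript table, with only Bcl2a1a past the limit. It was 3 with a pseudocount of 5 or without the filter. The other table has a lower TPM scale, most of all in replicate 1, so the added 1 TPM weighs more there. It shrinks the median gene's ratio more than those of higher genes. The other table's differences are thus not on the same footing, and a smaller pseudocount was not tried there.

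The 6 genes lower in replicate 2 were Bcl2a1a at -0.95, Bcl2a1b at -0.68, Bcl2l1 at -0.67, Bcl2a1d at -0.64, Bax at -0.61 and Bak1 at -0.56. The sum of the A1 genes, which does not depend on how reads were divided among these 3, stood at -0.70. Both effectors and 4 of the 6 guardians were thus on the same side. Of these guardians 3 are the near-identical A1 genes, which are not separate observations, here or in the count of 6 members. Mcl1 at -0.03 and Bcl2 at -0.15 lay inside the central 50% of genes, which ran from -0.33 to 0.32, and Bcl2l11 at 0.32 lay at its upper edge. Pmaip1, at 0.68, was the only member with 0.5 or more in the other direction.

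**Figure D3:**
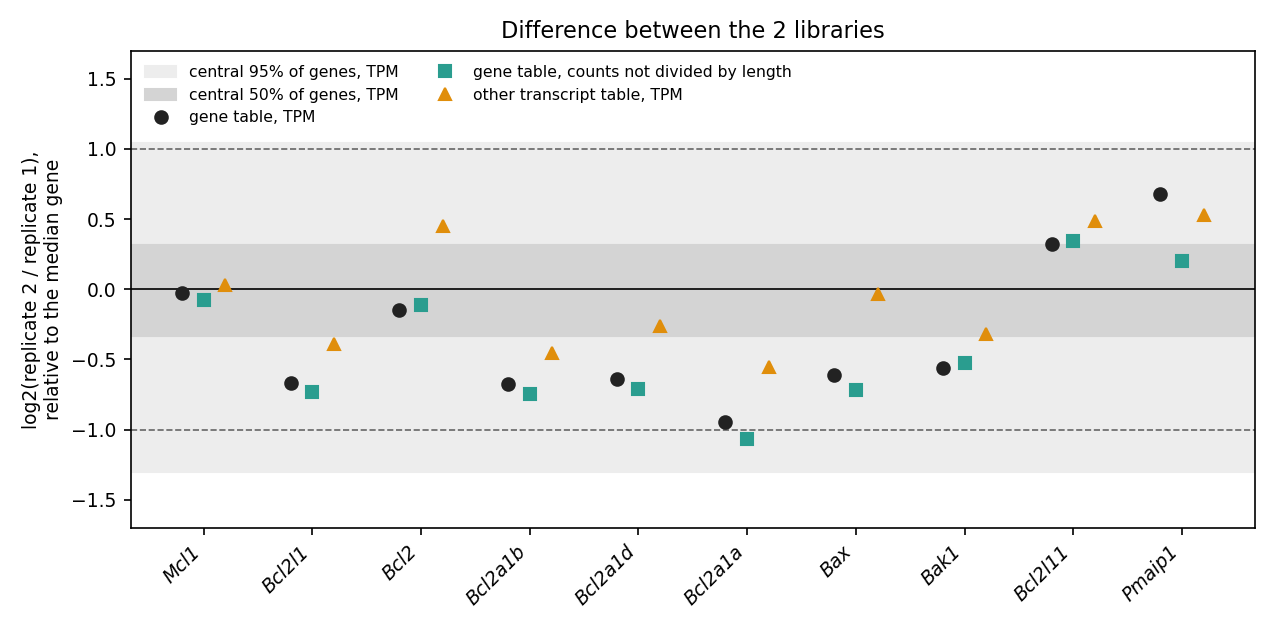
Log2 of replicate 2 over replicate 1 for each gene, relative to the median gene, from TPM of the gene tables (circles), counts not divided by length (squares) and TPM of the other transcript table (triangles). Bands give the central 50% and central 95% (-1.30 to 1.04) of genes by TPM, and dashed lines mark 2-fold. Bcl2l1, the A1 genes, Bax and Bak1 stood below 0 in all 3 series and Bcl2l11 and Pmaip1 above it. Bcl2 and Mcl1 were above 0 in the other table only, Mcl1 by 0.03. The triangles carry the added 1 TPM on a lower scale, so they are not on the same footing as the circles.

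Over 10 settings of scale, centring, filter and table, the main one included, the 6 lower genes stayed below 0 in all 10. Bcl2l11 and Pmaip1 stayed above 0 in all 10. These settings reuse the same libraries, and several change only the subtracted median or the pseudocount, so they are not independent checks. Bcl2 was below 0 in 7 and Mcl1 in 5. The size varied more than the sign, with Bax between -0.73 and -0.03 and Pmaip1 between 0.16 and 0.97. The -0.03 of Bax came from the other table, where the added 1 TPM weighs more on a lower scale. Bcl2a1a passed 2-fold at -1.05 with a pseudocount of 0.1 and at -1.06 with counts not divided by length, the latter chosen after seeing the data. Bcl2a1a had 12.6 CPM in replicate 1, with an exact 95% Poisson interval of 11.2 to 14.2, and 6.46 CPM in replicate 2, with 5.35 to 7.78, so the counting intervals were apart. The libraries also differed in input, in the summed stromal and endothelial markers given above, in the macrophage marker Fcgr1 (140 and 82.7 TPM, a difference of -1.04) and in 5 nuclear noncoding RNAs, which summed to 17272 and 29172 TPM. The part of any of these in the differences was not tested.

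The gene tables and the other transcript table were compared within each library, relative to the median ratio of all genes, which was -1.67 and -0.42 on the log2 scale. Beyond 2-fold were 0 members in replicate 1 and 1 in replicate 2, against 9.74% and 11.5% of genes. The exception was Bcl2, higher in the other table by 0.47 in replicate 1 and 1.25 in replicate 2. The other 9 members lay between -0.45 and 0.21 in both libraries.

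The genome annotation gives these genes 37 transcripts. Bcl2a1a, Bcl2a1b and Bcl2a1d have 1 each, and the other 7 genes have several. Among those 7 the leading transcript by TPM was the same in both libraries for 5 in the alignment-based table and for 4 in the other. The same was true of 75.0% of 9809 and 71.4% of 9808 genes with several transcripts and a mean of 1 TPM or more, so the members were near the background. Transcript shares are estimates from sequenced fragments.

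The largest shift, of 74.9 points, was in Pmaip1. Pmaip1-201, which is 2727 bases long and encodes the 103-codon NOXA, held 85.4% of the gene's TPM in replicate 1 and 10.5% in replicate 2. Pmaip1-203, of 2534 bases and 51 codons, held 6.73% and 46.3%, and Pmaip1-202, of 1012 bases and 54 codons, held 7.87% and 43.2%. The other table gave Pmaip1-201 96.5% and 25.8%, so the difference was present in both quantifications of the same reads. Replicate 2 thus had more of its Pmaip1 assigned to the short Pmaip1-202, and TPM divides by the length of the assigned transcripts.

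Most of the Bak1 TPM was assigned to the pair of transcripts annotated as targets of nonsense-mediated decay, Bak1-201 and Bak1-204, whose coding sequences have 151 and 79 codons. They held 37.2% and 40.6% of TPM in replicate 1 and 38.4% and 61.6% in replicate 2. Together that was 77.8% and 100%, and 58.2% and 95.4% by the other quantification. Bak1-202, which encodes the 209-codon BAK, had 7.52% in replicate 1 and was listed at 0 in replicate 2, against 29.7% and 4.62% in the other table. Bak1-203, also annotated as protein-coding, had 14.7% in replicate 1 and was listed at 0 in replicate 2. The share given to Bak1 transcripts annotated as protein-coding was thus lower in replicate 2 in both tables, at sizes that differed between them.

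For Bax, Bax-201 with 192 codons and Bax-203 with 172 codons held similar shares, 46.6% and 45.1% in replicate 1 and 43.8% and 44.8% in replicate 2. The retained-intron transcript Bax-206 held 3.81% in replicate 1 and 10.4% in replicate 2, on 16.2 and 23.5 counts, and in the other table it had 21.3% and 39.7% on 133 and 223. The higher library was replicate 2 in both tables.

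No transcript of Bcl2l11 differed between the libraries by more than 3.83 points, against 23.7 points in Bcl2l1, in the alignment-based table. In the other table the largest differences were 5.40 and 5.80 points, so the contrast between these genes was not seen there. Bcl2l11-205, which encodes the 196-codon extra-long form of BIM, held 61.1% in replicate 1 and 63.9% in replicate 2, and 55.1% and 60.5% in the other table. Bcl2l11-202, with 91 codons, held 16.5% and 20.3%, and the noncoding Bcl2l11-208 held 11.7% and 10.3%. The 140-codon long form and the 110-codon short forms held 2.38% and 4.04% in replicate 1 and 0.99% and 3.20% in replicate 2.

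For Bcl2l1, the transcripts of the 233-codon BCL-XL held 63.6% and 65.1% of TPM in replicates 1 and 2. Within that, Bcl2l1-202 held 22.2% in replicate 1 and 0.01% in replicate 2, and Bcl2l1-201 held 41.4% and 65.1%, but the other table gave Bcl2l1-202 22.3% and 19.4%. The near absence of Bcl2l1-202 in replicate 2 was therefore seen in 1 table only, and both transcripts have the same number of codons. Bcl2l1-205, with 209 codons, held 27.96% and 29.44%, and the 188-codon transcript held 3.06% and 1.87%.

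Mcl1-201, with 331 codons, held 100% of Mcl1 in both libraries in the alignment-based table. The other table gave it 82.0% and 100%, with 1250 estimated counts on the 285-codon Mcl1-202 in replicate 1 and 0 in replicate 2. Bcl2-201, with 236 codons, held 53.3% and 57.0% against 46.7% and 43.0% for Bcl2-202, with 199 codons. The other table gave the opposite order, with 30.3% and 18.9% for Bcl2-201. Bcl2, the member on which the tables differed most in level, thus also differed between them in its leading transcript.

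**Figure D4:**
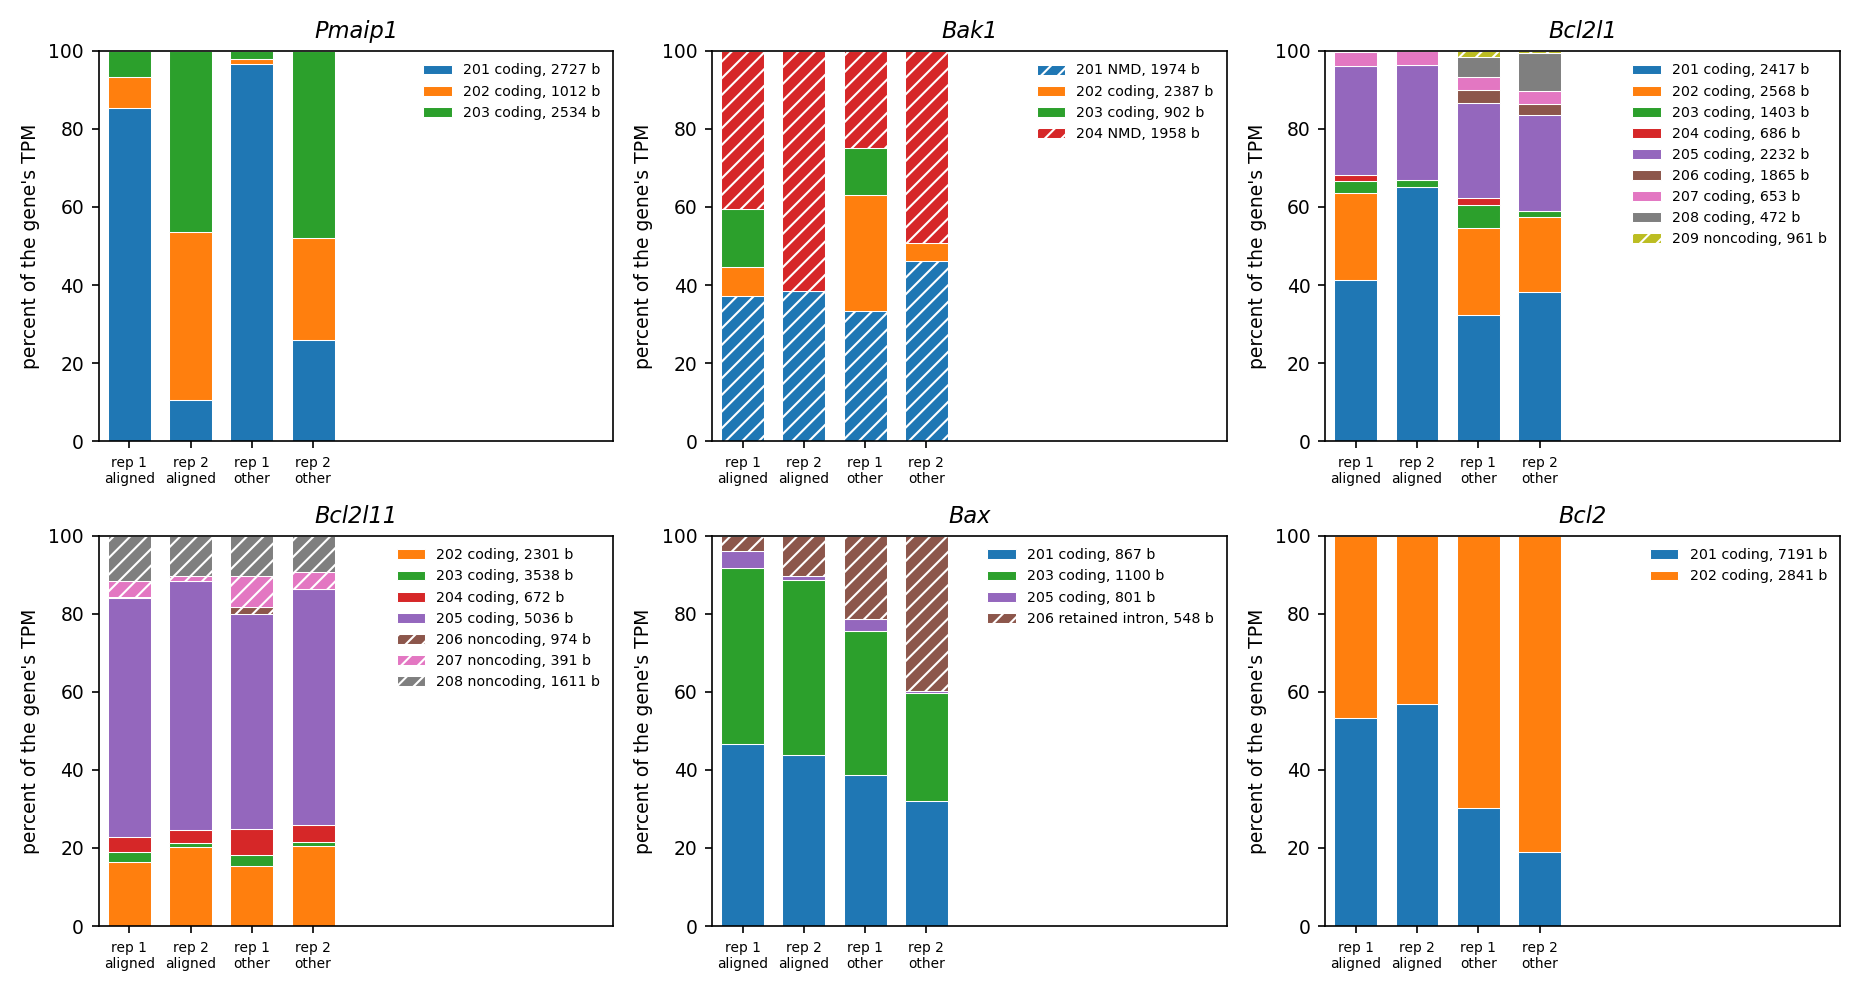
Percent of each gene's TPM in each annotated transcript, for replicates 1 and 2 in the alignment-based table and in the other table. Hatched bars are transcripts of the annotation types NMD (nonsense-mediated decay), retained intron and noncoding, b is length in bases, and transcripts under 1% throughout are not drawn. Pmaip1-201 held 85.4% in replicate 1 and 10.5% in replicate 2 in the alignment-based table, and the NMD transcripts of Bak1 reached 100% there in replicate 2.

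The rest of the apoptosis pathway was described from 6 lists of 47 genes. In both libraries 37 of them were at 1 TPM or more, against 43.7% of protein-coding genes. At 10 TPM or more stood 26, against 18.6%. None passed 2-fold between the libraries in either direction. Of all genes with a mean of 1 TPM or more, 4.51% were past it lower and 2.78% higher in replicate 2. The same limit of 1 TPM held for the list genes, and at such low shares none among 37 genes does not set them apart. Among 3 further guardians, Bcl2l2 (BCL-W) had 22.2 ± 0.672 TPM (SD, n = 2), and Bcl2l10 was at 0. Of 6 further BH3-only genes 3 reached 1 TPM: Bid had 14.6 ± 3.10 TPM, Bad 5.39 ± 0.884 TPM and Bbc3, the PUMA gene, 4.89 ± 0.771 TPM. Each of these was below both libraries of Bcl2l11. Of 7 other BCL2-like genes 4 reached 1 TPM, led by the mitophagy receptor gene Bnip3l at 8.98 ± 1.73 TPM, Bcl2l13 at 4.22 ± 0.898 TPM and Bcl2l12 at 3.21 ± 0.580 TPM.

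Downstream of BAX and BAK, 11 of 12 apoptosome, caspase and IAP genes reached 1 TPM. The IAP gene Birc3 had 61.8 ± 9.25 TPM (SD, n = 2), the apoptosome scaffold Apaf1 34.2 ± 0.106 TPM and the caspase inhibitor Xiap 29.4 ± 6.92 TPM. Of 12 genes that regulate the family's levels 11 reached 1 TPM. Mdm2, the ligase of p53, had 92.0 ± 5.78 TPM, Huwe1, a ubiquitin ligase of MCL1, 73.5 ± 31.3 TPM and Ddit3, the stress factor CHOP, 60.0 ± 2.28 TPM. All 7 mitochondrial partners of BAX and BAK were at 10 TPM or more, led by Vdac2, which binds BAK, at 41.5 ± 4.69 TPM, Dnm1l at 34.8 ± 10.3 TPM and Mff at 27.0 ± 6.55 TPM. Mcl1, at 238 and 286 TPM, was above every one of the 47 genes in both libraries.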

How the data were processed

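Nuclear RNA of 2 libraries of 1 group was analysed, with replicate numbers from the labels. The tables were made on mm10 with GENCODE M21, per deposited text files. Each library has a gene table and a transcript table that the authors derived from transcriptome alignments, and another transcript table made without them from the reads. Per the file headers, they hold expected counts (estimated counts in the last table) and TPM. The deposited isoform percent gives a transcript's share of its gene's TPM, per the file headers. The sources used here give no tools, versions or strand setting.

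Entries with numeric identifiers (26248, with 24 and 54 counts) and 97 spike-ins (0.581% and 0.434% of counts) stayed out. The 10 genes and all lists were chosen with earlier results of these data known, and every result is a description with no test. A count of 0 allows 3 counts, or 0.137 and 0.169 CPM. The libraries differed far beyond sampling noise, with a chi-square per degree of freedom of 91.26 over 14347 genes. That value does not show that they are separate biological replicates. They were counted as separate because the labels number them so. A pseudocount of 1 was added to TPM of both tables, which understates folds of low genes, and 0.01 between tables and for CPM. For TMM-scaled CPM it was 1, without centring. Where a symbol had 2 identifiers the higher was used. All members, and of each pathway list the 3 highest genes and any past 2-fold, were named, with transcripts at 10% or more of a gene and other codon forms. R 4.3.3 with edgeR 4.0.16 gave TMM factors from rounded expected counts, and Python 3.11.15 did the rest (biopython 1.88, matplotlib 3.10.9, scipy 1.17.1, pandas 2.3.3, numpy 2.4.6). Alternatives were other pseudocounts, filters, centring, scales and tables, and leaving out each library.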

Additional observations from a re-analysis of the deposited data

How the results depend on the processing

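All 10 genes stayed at 1 TPM or more under every alternative of scale, table and library. At 10 TPM or more in both libraries stood 8 of them in the gene tables, 5 in the other transcript table, and 8 to 9 with 1 library left out. With a pseudocount of 0.1, and with counts not divided by length (chosen after seeing the data), 1 member (Bcl2a1a) passed 2-fold in the lower direction, where 0 did otherwise. The count of members at 0.5 or more lower, 6, was 3 with a pseudocount of 5 or no filter and 1 without centring or in the other table. The added 1 TPM weighs more on the other table's lower scale, so its count is not on the same footing. The count of members higher, 1, was 2 without centring and 0 with TMM-scaled CPM or counts not divided by length. The members' median percentile among protein-coding genes was 93.8, and it was 91.8 in the other transcript table, 82.5 with counts not divided by length and 92.3 to 94.0 with 1 library left out. The ratio of guardians to death genes, 3.92 on average, was 4.76 with counts not divided by length and 3.69 to 4.15 with 1 library left out. The share of Bcl2a1b in the A1 sum, 50.8%, was 45.2% in the other table, 49.4% with counts not divided by length and 50.4% to 51.3% with 1 library left out. The cause of these shifts was not tested. Several results turned with the setting, as given in the report. Among them were the signs of the differences of Bcl2 and Mcl1 and the ratio of guardians without Mcl1 to death genes around 1. The order of BH3-only and effector sums in replicate 1 and the leading Bcl2 transcript turned as well. So did the order of the A1 sum and Bcl2l1, and the overlap of ranges between some members. Leaving out a library was not possible for the difference between libraries or for the agreement of leading transcripts. No paired analysis was possible because there is 1 group. Depth limits Bcl2a1a (115 counts in replicate 2) and the low transcripts most.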
